A study of Mus musculus with 2 samples.

Results

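The 8 genes described here handle arginine, the polyamines made from it, and itaconate. They were chosen by symbol from the 32285 genes of each count matrix, and all 8 were found: *Slc7a2*, *Arg1*, *Arg2*, *Nos2*, *Ass1*, *Odc1*, *Sat1* and *Acod1*. Single-cell RNA sequencing was done on heart macrophages sorted as CD45+, CD11b+ and CD64+ from the infarct and border zones of mice 3 days after myocardial infarction. There were 2 groups with 1 library each, WT and CD40 KO, so both groups had an infarct, and no uninjured heart was analysed here. CD40 is a receptor of the TNF receptor family, and the title of the series ties the comparison to the uptake of dying cells by macrophages. The sources used here do not give the CD40 allele or the number, age and sex of the mice behind a library.

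Arginine enters macrophages through cationic amino acid transporters, among them the product of *Slc7a2*. Inside the cell, inducible nitric oxide synthase (*Nos2*) turns it into nitric oxide and citrulline, while arginase 1 in the cytosol (*Arg1*) and arginase 2 in mitochondria (*Arg2*) turn it into urea and ornithine. Argininosuccinate synthase (*Ass1*) carries out the first step that rebuilds arginine from citrulline. Ornithine decarboxylase (*Odc1*) makes putrescine from ornithine, the entry to spermidine and spermine, and the acetyltransferase *Sat1* marks spermidine and spermine for breakdown or export. Aconitate decarboxylase (*Acod1*) draws aconitate out of the TCA cycle to make itaconate, which slows succinate dehydrogenase and activates the Nrf2 stress response. As background, *Nos2* and *Acod1* stand for macrophages activated by bacterial products and interferon, and *Arg1* for those activated by interleukin-4 or engaged in repair.

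In the mouse build mm10 the genes lie on 7 chromosomes, by GENCODE vM21: *Ass1* at chr2:31470207-31520672, *Slc7a2* at chr8:40862396-40922308, *Arg1* at chr10:24915221-24927484 on the minus strand and *Nos2* at chr11:78920787-78960254. *Odc1* (chr12:17544794-17551505) and *Arg2* (chr12:79130777-79156301) share a chromosome, *Acod1* is at chr14:103046977-103056573 and *Sat1* at chrX:155213132-155216449 on the minus strand. RefSeq promoter windows (GRCm38.p6) were at hand for 4 of the 8 genes. Those of *Acod1*, *Odc1* and *Sat1* are shown because *Acod1* and *Odc1* were both higher in the library labelled CD40 KO and *Sat1* was lower. Each runs 5′ to 3′ on the strand of its gene, ends before the GENCODE start, and has capitals where the GC box GGGCGG (or CCGCCC, its other strand) was found.
Acod1, chr14:103046762-103046976, plus strand: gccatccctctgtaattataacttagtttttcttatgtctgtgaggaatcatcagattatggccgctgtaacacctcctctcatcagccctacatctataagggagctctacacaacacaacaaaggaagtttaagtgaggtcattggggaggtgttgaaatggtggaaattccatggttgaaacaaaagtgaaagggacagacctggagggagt
Odc1, chr12:17544623-17544793, plus strand: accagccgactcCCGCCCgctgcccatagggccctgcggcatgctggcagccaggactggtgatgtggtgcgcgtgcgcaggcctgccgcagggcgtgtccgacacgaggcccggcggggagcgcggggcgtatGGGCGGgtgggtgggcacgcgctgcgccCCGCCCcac
Sat1, chrX:155216450-155216699, minus strand: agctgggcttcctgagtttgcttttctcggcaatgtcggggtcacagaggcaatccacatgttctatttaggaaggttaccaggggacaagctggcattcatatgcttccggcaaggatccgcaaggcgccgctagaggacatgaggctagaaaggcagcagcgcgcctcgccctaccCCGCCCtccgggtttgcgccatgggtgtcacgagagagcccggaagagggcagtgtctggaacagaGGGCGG
Over the 250 bases before the RefSeq start, the *Acod1* window was 44.4% G or C with 2 CG pairs and had no GC box. It held TATAAA 28 bases before the start, in the stretch not printed. The *Odc1* window was 80.0% G or C with 35 CG pairs and 4 GC boxes, of which 3 are in the printed stretch. *Sat1* had 59.6% G or C, 15 CG pairs and 2 GC boxes, and *Ass1*, not printed, had 75.6%, 23 CG pairs, 1 GC box and the E-box CACGTG. Among 32851 windows of the same length the medians were 52.4% and 6 CG pairs, and on either strand 12.4% held TATAAA, 32.7% the GC box and 6.02% CACGTG. *Acod1* thus stood below these medians and *Odc1*, *Ass1* and *Sat1* above them.

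In WT, 10624 barcodes carried 139343516 UMIs, tags that let each captured RNA molecule be counted once. The other library had 8146 barcodes and 90057108 UMIs, and the medians were 9353.5 and 5346.5 UMIs per barcode. After filters and removal of likely doublets 7247 and 7406 barcodes remained, and 23 barcode sequences occurred in both libraries. Below, pairs of values give WT first and the library labelled CD40 KO second. Clusters named by their leading marker genes gave a macrophage-like class of 5104 and 2314 barcodes (median 11776 and 15336 UMIs), in which *Cd68*, *C1qa*, *Adgre1*, *Fcgr1* and *Csf1r* were all detected. A cluster led by *Mt1* and *Crip1* held 22 and 4356 barcodes, or 58.8% of the second library, at a median of 3204 UMIs there, and was given no cell type. A further 901 and 213 barcodes carried macrophage and neutrophil genes together and were kept apart. *Cd40* RNA cannot check the labels here, since 3′ tags may come from a part of the gene that the allele keeps. Since each group is 1 library, no difference has a replicate check and none was tested. Levels are CPM, the UMIs of a gene per 1000000 UMIs summed over a group of barcodes, and intervals are exact 95% intervals that cover counting error only.

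Each gene had its own distribution over the cell groups. *Arg1* was abundant in the macrophage-like class and in the cluster with macrophage and neutrophil genes, *Acod1* and *Arg2* were highest in neutrophil-like barcodes and *Slc7a2* in fibroblast-like ones. *Nos2* was highest in endothelial-like barcodes in WT. *Odc1* and *Sat1* were present in every group.

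**Figure D1:**
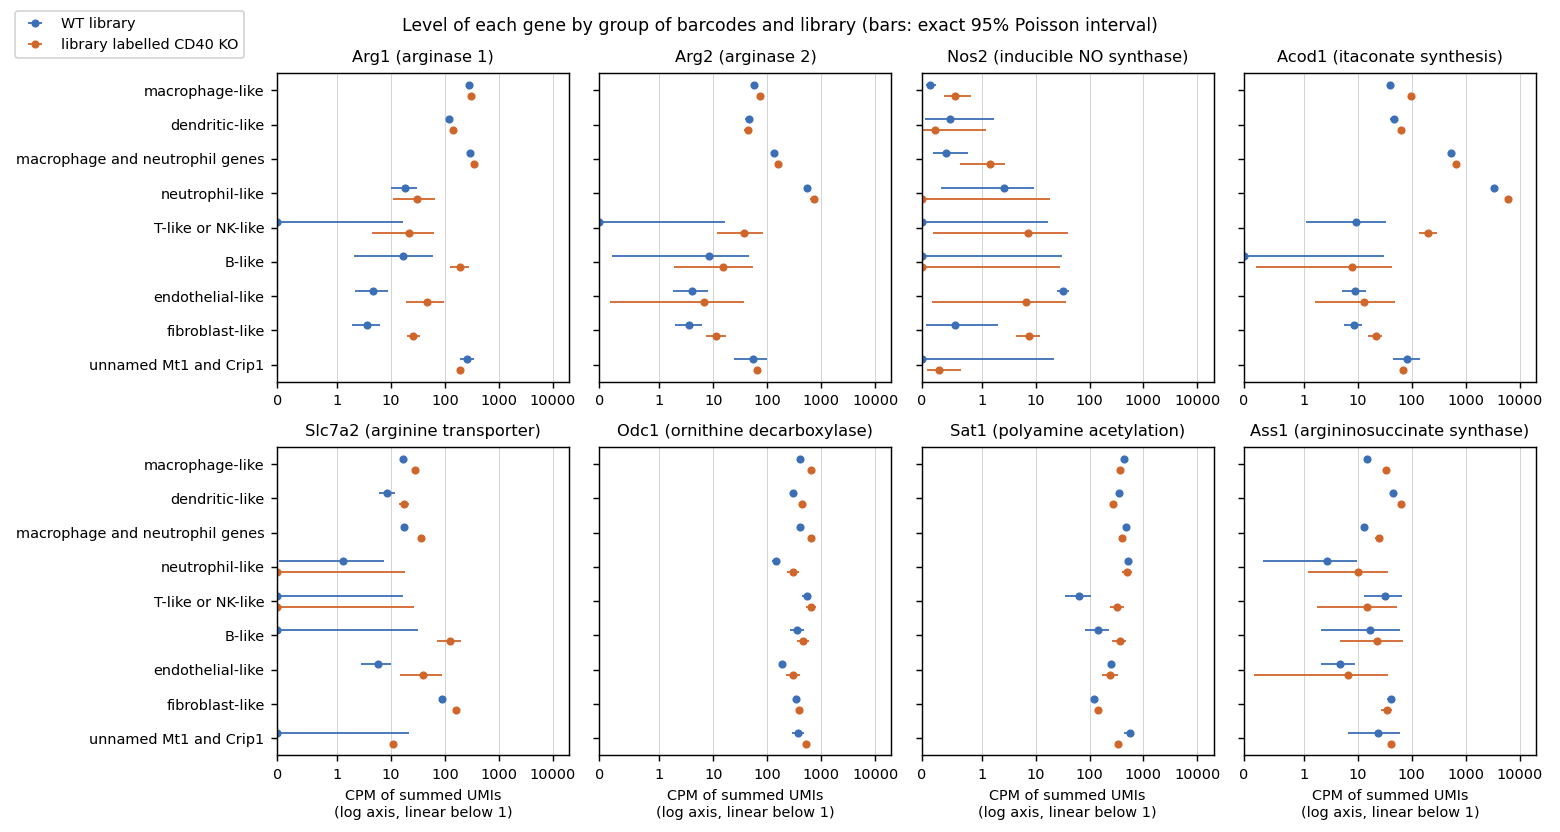
Level of each of the 8 genes (CPM of summed UMIs, log axis that is linear below 1) in 9 groups of barcodes, with WT in blue, the library labelled CD40 KO in orange and bars for exact 95% Poisson intervals. Acod1 reaches 3359 and 6126 CPM in neutrophil-like barcodes against 40.2 and 95 in macrophage-like ones, and Nos2 reaches 32.9 CPM in the endothelial-like barcodes of WT.

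*Arg1* stood at 283 (279 to 287) and 303 (298 to 308) CPM in the macrophage-like class. In the cluster with macrophage and neutrophil genes it was close to that, at 293 and 350, and in dendritic-like barcodes it was 117 and 143. Neutrophil-like barcodes had 18.3 and 30.1 CPM, endothelial-like ones 4.62 and 46.3 and fibroblast-like ones 3.60 and 26.1. Outside the myeloid groups the counts were small: 9 and 7 UMIs in endothelial-like, 13 and 55 in fibroblast-like barcodes. In the 12 B-like barcodes of the library labelled CD40 KO all 25 *Arg1* UMIs came from 1 barcode, so the 192 CPM there is that barcode's value. With each barcode thinned to 3000 UMIs, which removes differences in depth, 29.3% and 31.2% of macrophage-like barcodes had an *Arg1* UMI (49.5% and 58.8% before thinning). Thinning left out 144 and 54 shallower barcodes of the class. In WT the thinned share was 1.90% in endothelial-like barcodes (median 5836 UMIs before thinning) and 1.63% in fibroblast-like ones (median 23149), taken as groups that should lack the gene. In the library labelled CD40 KO it was 11.1% (8 of 72, 4.92 to 20.7) in fibroblast-like barcodes (median 17468), beside the 31.2% of the class.

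*Acod1* reached 3359 (3230 to 3491) and 6126 (5788 to 6480) CPM in neutrophil-like barcodes. After thinning, 70 of 72 and 30 of 30 neutrophil-like barcodes held at least 1 of its UMIs, with 232 and 34 too shallow to be thinned (93.1% and 100% of all before thinning). The mixed macrophage and neutrophil cluster came next, at 523 and 662 CPM, and all other groups named from markers were below 100 except the 12 T-like or NK-like barcodes of the second library, where 24 of 28 UMIs came from 1 barcode. The macrophage-like class had 40.2 (38.8 to 41.7) and 95 (92.2 to 97.9) CPM and dendritic-like barcodes 46.0 and 62.7. The mixed cluster was 12.4% of kept WT barcodes but held 66.2% of the 17489 *Acod1* UMIs of that library, and 36.9% of 11471 in the other. Only 17.2% and 38.5% of *Acod1* UMIs therefore came from barcodes of the macrophage-like class.

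Set against *S100a9*, a calcium-binding protein that neutrophils make in large amounts, *Acod1* differed between these groups. There were 0.185 and 0.262 *Acod1* UMIs per *S100a9* UMI in neutrophil-like barcodes and 0.354 and 0.399 in the mixed cluster. In the macrophage-like class the quotient was 2.22 and 4.11. The 12 neutrophil markers summed to 5165 and 5337 CPM in the macrophage-like class with 0 of them at 0, and of these sums *Cxcl2*, which macrophages also make, gave 5018 and 5136. The other 11 summed to 147 and 201, with *S100a8* at 17.2 and 30.9 and *S100a9* at 18.1 and 23.1, so they were higher in the second library as *Acod1* was. Their part in the *Acod1* level of the class was not tested.

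*Arg2*, the mitochondrial arginase, was also highest in neutrophil-like barcodes, at 551 (499 to 606) and 737 (623 to 866) CPM. A further 133 and 159 CPM were found in the mixed cluster, 57.9 and 74.7 in the macrophage-like class and 45.7 and 43.2 in dendritic-like barcodes. Endothelial-like and fibroblast-like barcodes had between 3.60 and 11.4 CPM. The 2 arginases therefore had different orders over the groups: *Arg1* was higher in macrophage-like than in neutrophil-like barcodes by 3.95 and 3.33 on the log2 scale, and *Arg2* was lower there, at −3.25 and −3.30. With barcodes assigned by their own marker UMIs these became 2.33 and 0.47 for *Arg1*, from 48 and 57 UMIs in 250 and 60 neutrophil-like barcodes, and −2.73 and −2.87 for *Arg2*.

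*Nos2* was close to absent from the macrophage-like class. It had 10 UMIs in 9 of 5104 barcodes of WT (0.133 CPM, 0.0640 to 0.245) and 26 UMIs in 20 of 2314 barcodes of the library labelled CD40 KO (0.559 CPM, 0.365 to 0.819). Neutrophil-like barcodes held 2 and 0 UMIs. Of the 89 *Nos2* UMIs in kept WT barcodes, 71.9% lay in the 208 endothelial-like barcodes, 2.87% of all: 64 UMIs were spread over 44 barcodes with at most 4 in any of them, or 32.9 CPM (25.3 to 42.0). After thinning, 17 of 158 endothelial-like barcodes (10.8%, 6.39 to 16.7) had a *Nos2* UMI, against 2 of 4960 macrophage-like ones (0.0403%). Before thinning these shares were 21.2% and 0.176%. The second library had only 12 endothelial-like barcodes and 1 *Nos2* UMI among them. Its fibroblast-like barcodes had 16 UMIs, 15 of them in 1 barcode. The ratio between the libraries in the macrophage-like class, 4.19-fold (1.95 to 9.73), thus rests on 10 and 26 UMIs, and *Nos2* was below the 10 CPM set for a gene to count as measured.

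*Slc7a2*, the arginine transporter, was highest in fibroblast-like barcodes, at 88.7 (79.3 to 99.0) and 157 (140 to 175) CPM. It was found in 60 of 133 and 35 of 80 of those barcodes. The macrophage-like class had 16.7 and 27.8 CPM, the mixed cluster 17.4 and 36.4 and dendritic-like barcodes 8.57 and 17.4, while neutrophil-like barcodes had 1 and 0 UMIs. Fibroblast markers summed to 18 and 41.8 CPM over 9 genes in the macrophage-like class, with 0 of them at 0, so they were higher in the second library as *Slc7a2* was. Their part in the *Slc7a2* level of the class was not tested.

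*Ass1* was most abundant in dendritic-like barcodes, at 45.0 (38.8 to 51.9) and 61.9 (54.9 to 69.4) CPM. Fibroblast-like barcodes had 40.8 (34.4 to 47.9) and 34.7 (27.2 to 43.6), and the macrophage-like class 14.7 (13.9 to 15.6) and 33.5 (31.9 to 35.2). Neutrophil-like barcodes had 2 UMIs in each library. In WT the dendritic-like and fibroblast-like intervals overlapped and the macrophage-like class lay below both. In the second library dendritic-like barcodes lay above, and the fibroblast-like and macrophage-like intervals overlapped.

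The polyamine genes were the most even of the 8. Among groups named from markers, *Odc1* ran from 146 CPM in neutrophil-like to 539 in T-like or NK-like barcodes in WT, and from 301 to 656 among the same groups in the library labelled CD40 KO. *Sat1* ran from 63.9 CPM in T-like or NK-like to 524 in neutrophil-like barcodes in WT, and from 146 in fibroblast-like to 501 in neutrophil-like barcodes in the other library. In the macrophage-like class *Odc1* had 401 and 649 CPM and *Sat1* 440 and 363. The T-like or NK-like values come from 41 and 12 barcodes.

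Within the macrophage-like class, clustering once more, a step chosen after seeing the data, gave 10 subsets. The 8 genes and the pathway lists described further on took no part in the clustering. Of these subsets 5 were named from marker lists: lipid-associated-like, MHC class II-like, Ly6c monocyte-like, interferon-response-like and cycling-like. The other 5 are called by their leading genes: *Fcrls* and *Selenop*, *Rgs1* and *Jun*, *Scin* and *Saxo1*, *Slc40a1* and *Ppbp*, and *Saa3* and *Serpinb2*. The lipid-associated-like subset held 31.4% of the WT class and 5.57% of the class in the other library, and the Ly6c monocyte-like subset 6.88% and 33.3%.

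**Figure D2:**
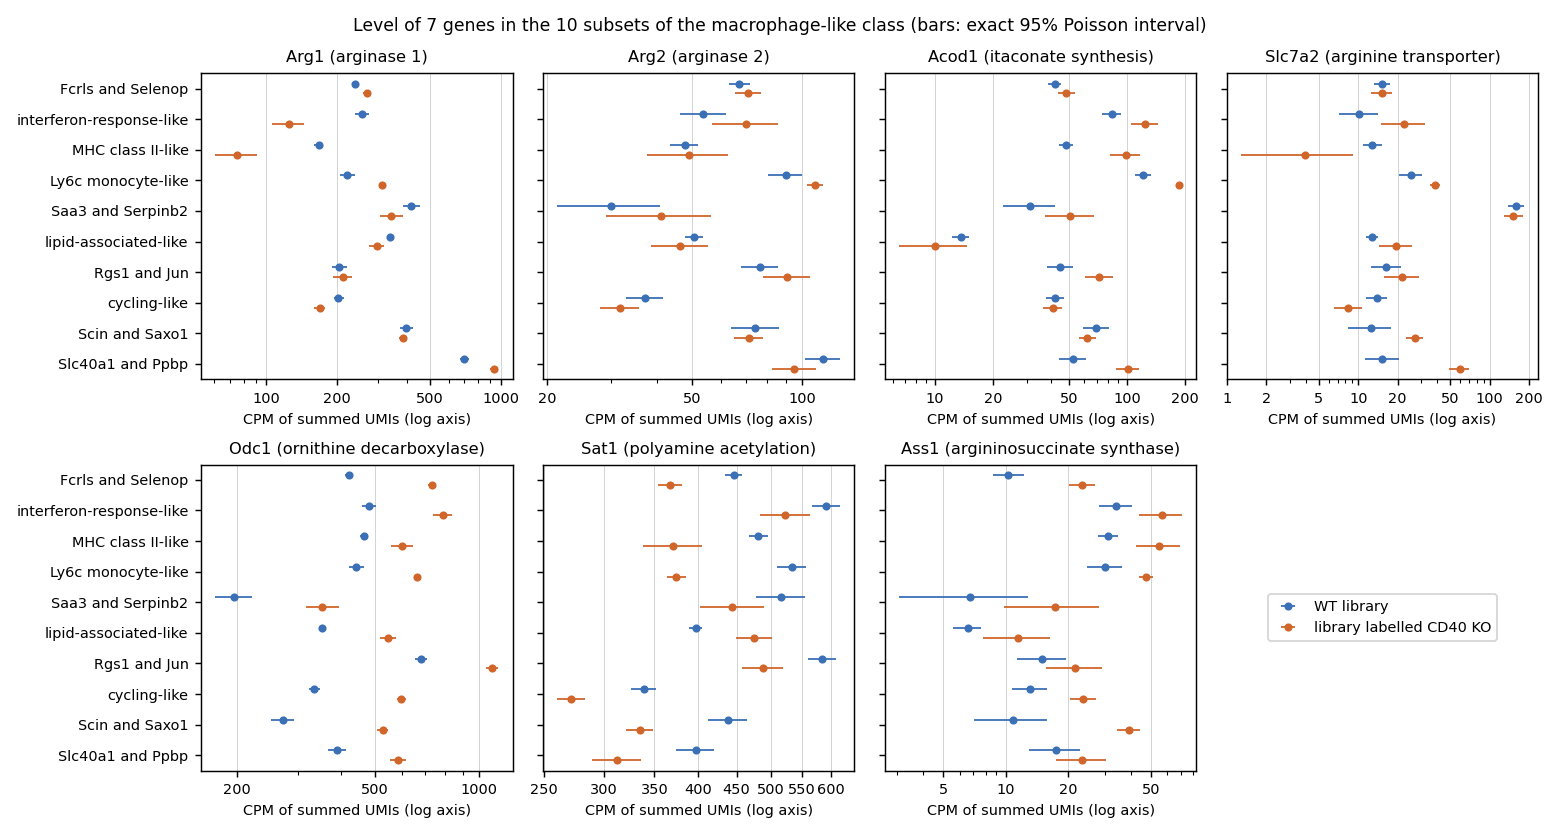
Level of 7 of the genes (CPM of summed UMIs, log axis with its own range per panel) in the 10 subsets of the macrophage-like class, with WT in blue, the library labelled CD40 KO in orange and bars for exact 95% Poisson intervals. Arg1 is highest in the Slc40a1 and Ppbp subset in both libraries (698 and 936 CPM), and the orange Odc1 and Ass1 points lie to the right of the blue ones in all 10 subsets.

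*Arg1* was highest in both libraries in the subset led by *Slc40a1* and *Ppbp*, at 698 (668 to 729) and 936 (896 to 977) CPM. After thinning, 56.7% and 68.6% of its barcodes had an *Arg1* UMI (80.6% and 88.2% before). The leading genes of this subset include the iron exporter *Slc40a1* and the antioxidant genes *Gclm*, *Cat* and *Prdx1*. Of 5 platelet markers 4 and 3 were at 0 there, with *Ppbp* among those present. The *Saa3* and *Serpinb2* subset followed in WT at 415, then *Scin* and *Saxo1* at 396 and lipid-associated-like at 336. MHC class II-like barcodes were lowest, at 167 (159 to 175) and 74.8 (60.6 to 91.5). The range between the highest and lowest subset was 4.18-fold in WT and 12.5-fold in the other library, and the order of the 10 subsets was alike in both (Spearman's rho 0.82, a description over 10 subsets that share their library). Because of its size the lipid-associated-like subset held 40.6% of the class's *Arg1* UMIs in WT, while Ly6c monocyte-like barcodes held 30.5% in the library labelled CD40 KO.

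*Acod1* had another order. Ly6c monocyte-like barcodes were highest, at 121 (110 to 133) and 187 (180 to 194) CPM, followed by interferon-response-like ones at 83.3 and 124. Lipid-associated-like barcodes were lowest in both libraries, at 13.6 (12.2 to 15.1) and 9.94 (6.49 to 14.6). The span from the lowest to the highest subset was 8.92-fold and 18.8-fold, the order was again alike (rho 0.88), and Ly6c monocyte-like barcodes held 58.4% of the class's *Acod1* UMIs in the second library. *Acod1* per *S100a9* UMI lay between 0.441 and 7.71 over the subsets, above the 0.185 and 0.262 of neutrophil-like barcodes in all 10 of them.

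*Arg2* was highest in the *Slc40a1* and *Ppbp* subset in WT, at 114 (102 to 127), and in Ly6c monocyte-like barcodes in the other library, at 108 (103 to 114). These were the 2 highest subsets in both libraries, and the order of all 10 was close between libraries (rho 0.96). The lowest levels were 29.9 in the *Saa3* and *Serpinb2* subset of WT and 31.7 in the cycling-like barcodes of the other library.

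*Slc7a2* was concentrated in the small *Saa3* and *Serpinb2* subset, at 160 (139 to 183) and 152 (128 to 179) CPM. Only 23 of 85 and 11 of 42 barcodes carried it there, and the barcode with most held 39.3% and 42.6% of the UMIs. All other subsets of WT lay between 10.2 and 25.1 CPM. Its order over the subsets differed most between the libraries among the 7 measured genes (rho 0.44).

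*Ass1* was highest in interferon-response-like (33.8 and 56.2 CPM), MHC class II-like (31.1 and 54.4) and Ly6c monocyte-like barcodes (47.3 in the second library), whose intervals overlapped. Lipid-associated-like barcodes had 6.56 and 11.5. *Odc1* was highest in the *Rgs1* and *Jun* subset, at 681 (655 to 708) and 1091 (1047 to 1138), a subset led by immediate early genes, and lowest at 196 and 353 in the *Saa3* and *Serpinb2* subset. *Sat1* varied least, 1.75-fold and 1.93-fold, from 339 and 271 CPM in cycling-like to 592 and 522 in interferon-response-like barcodes.

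Between the libraries, 4 of the 7 measured genes were at least 1.5-fold higher in the macrophage-like class of the library labelled CD40 KO: *Acod1*, *Ass1*, *Slc7a2* and *Odc1*. None of the 7 was at least 1.5-fold lower. Among all 7581 genes measured (a mean of at least 10 CPM) 8.82% were higher by that limit and 3.54% lower. At 1.3-fold the members counted were the same 4 higher and 0 lower, beside 20% and 10.4% of all genes. Median-of-ratios scaling takes 0.27 off every log2 ratio of the class, the median over all genes with a UMI in both libraries. Genes below 10 CPM count in it, and over the measured genes alone the median was 0.09. With 0.27 taken off, the shares of all genes turned round, to 3.68% higher and 13.8% lower at 1.5-fold. *Acod1* and *Ass1* were then the members still higher. Every direction between the libraries is therefore relative to the scaling used. The whole class differs in its subsets between the libraries, with lipid-associated-like barcodes most common in WT and Ly6c monocyte-like ones in the other, so values within subsets stand beside each ratio.

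**Figure D3:**
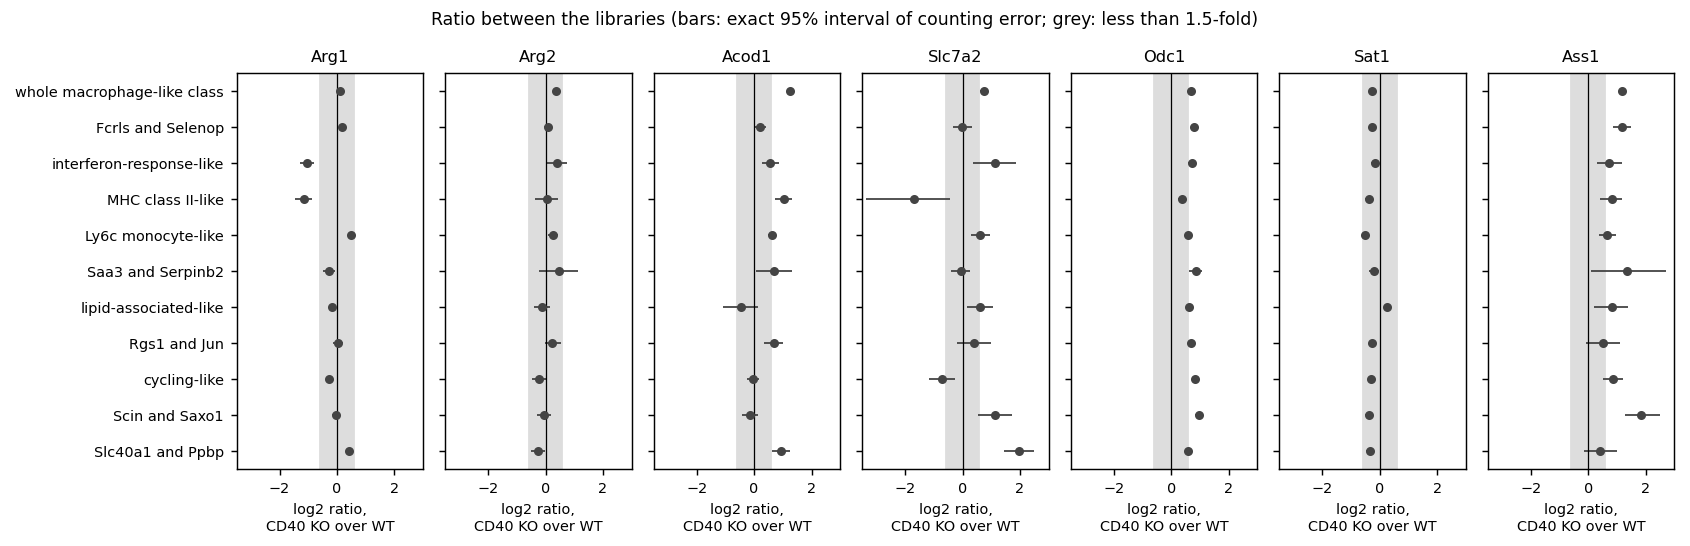
Log2 ratio of CPM, library labelled CD40 KO over WT, for 7 genes in the whole macrophage-like class and its 10 subsets, with bars for exact 95% intervals of counting error and a grey band for less than 1.5-fold. Odc1 and Ass1 points lie right of 0 in every subset, Sat1 points left of 0 in all but the lipid-associated-like subset, and Arg1 points on both sides.

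*Ass1* was 2.27-fold (2.10 to 2.46) higher in the class, rank 109 of the 7581 genes. It was higher in all 10 subsets, from 1.34-fold in the *Slc40a1* and *Ppbp* subset (17.4 and 23.3 CPM) to 3.61-fold (2.40 to 5.63) in *Scin* and *Saxo1* (10.8 and 39.0 CPM). The intervals of the *Slc40a1* and *Ppbp* and the *Rgs1* and *Jun* subsets included a ratio of 1. Of all measured genes 13.6% were higher in every subset and 1.91% were at least 1.3-fold higher in every subset, and *Ass1* was the only member among the latter. In dendritic-like barcodes it was higher by 1.37-fold (1.14 to 1.66), and in fibroblast-like ones the ratio was 0.850 (0.633 to 1.13).

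*Odc1* was 1.62-fold (1.59 to 1.64) higher in the class and, like *Ass1*, higher in every subset. Its ratios were even: the lowest was 1.29-fold in MHC class II-like (466 and 600 CPM) and the highest 1.95-fold in *Scin* and *Saxo1* barcodes (271 and 527 CPM). In neutrophil-like barcodes it was 2.05-fold (1.48 to 2.83) higher, in dendritic-like 1.5-fold (1.40 to 1.61) and in fibroblast-like 1.12-fold (1.02 to 1.22). The share of thinned macrophage-like barcodes with an *Odc1* UMI was 56.1% (54.7 to 57.5) and 72.3% (70.5 to 74.2), or 83.4% and 93.4% before thinning. The lowest log2 ratio over the subsets was 0.36 (0.25 to 0.47) for *Odc1* and 0.42 (−0.16 to 1.01) for *Ass1*. The 0.27 of the other scaling was worked out for the whole class only, so it is not set against single subsets.

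*Acod1* was 2.36-fold (2.26 to 2.48) higher in the class, rank 89 of 7581, and 1.82-fold (1.70 to 1.95) higher in neutrophil-like barcodes. The 11 neutrophil markers other than *Cxcl2* were also higher in the class, at 147 and 201 CPM. Its macrophage-like subsets differed. It was 2.04-fold (1.66 to 2.49) higher in MHC class II-like, 1.92-fold (1.56 to 2.37) in *Slc40a1* and *Ppbp* and 1.54-fold (1.39 to 1.71) in Ly6c monocyte-like barcodes. In cycling-like (42.1 and 41.0 CPM), *Scin* and *Saxo1* (69.0 and 62.2) and lipid-associated-like barcodes (13.6 and 9.94) the intervals included a ratio of 1. With the 10 subsets given equal shares in both libraries the log2 ratio of *Acod1* was 0.53, against 1.24 for the class as found. With the mixed macrophage and neutrophil cluster added to the class it was 0.12. With barcodes assigned one by one from their own marker UMIs, a gate that takes in 6308 and 7013 barcodes, the direction turned to −0.10. That gate also takes in barcodes of the mixed and the unnamed clusters, which the class leaves out. It held 14509 and 9972 *Acod1* UMIs (147 and 137 CPM), against 3012 and 4422 in the class.

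*Slc7a2* was 1.67-fold (1.54 to 1.80) higher in the class. It was 3.86-fold (2.73 to 5.54) higher in *Slc40a1* and *Ppbp* barcodes, at 15.3 and 59.1 CPM, and 2.16-fold (1.46 to 3.29) in *Scin* and *Saxo1* barcodes, at 12.5 and 26.9. In MHC class II-like barcodes it had 12.8 CPM in WT and 3.94 in the other library, the latter from 5 UMIs, and in cycling-like ones 13.8 and 8.42. Its log2 ratio was 0.42 with the subsets at equal shares, below the 0.58 that corresponds to 1.5-fold.

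The 2 arginases were below that limit. *Arg2* was 1.29-fold (1.23 to 1.35) higher in the class and between 0.834-fold and 1.37-fold in the subsets, higher in 6 and lower in 4. *Arg1* was 1.07-fold (1.05 to 1.10) higher, close to the median gene, since 49.2% of measured genes had a larger ratio. Its subsets lay on both sides. *Arg1* was lower in MHC class II-like (0.448-fold, 0.361 to 0.551) and interferon-response-like barcodes (256 and 125 CPM, 0.487-fold, 0.410 to 0.577). It was higher in Ly6c monocyte-like (222 and 312 CPM, 1.41-fold, 1.31 to 1.52) and *Slc40a1* and *Ppbp* barcodes (1.34-fold, 1.26 to 1.43). The MHC class II-like value of the library labelled CD40 KO comes from 95 UMIs in 34 of 108 barcodes. After thinning, 20.1% (17.6 to 22.7) and 16.0% (9.43 to 24.7) of MHC class II-like barcodes had an *Arg1* UMI, and these intervals overlapped. In interferon-response-like barcodes the shares were 26.5% and 11.7%, or 41.1% and 43.6% before thinning. *Arg1* UMIs were uneven over barcodes of the class (variance 4.56 and 4.96 times the mean after thinning), which the ratio intervals do not cover. With median-of-ratios scaling the class value of *Arg1* changed sign from 0.10 to −0.17, and with barcodes assigned by their own marker UMIs it was −0.02.

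*Sat1* was the only measured member lower in the class, at 0.825-fold (0.810 to 0.841), and 84.0% of measured genes had a larger ratio. It was lower in 9 of 10 subsets, most in Ly6c monocyte-like barcodes (533 and 374 CPM, 0.702-fold, 0.667 to 0.740). Lipid-associated-like barcodes were the exception, at 397 and 475 CPM (log2 0.26, 0.17 to 0.34). The shift of the other scaling was not worked out for this subset, so its direction there is not known under that scaling. Over all measured genes 10.6% were lower in every subset, a stricter limit that *Sat1* did not meet. The share of genes lower in at least 9 subsets was not worked out. Dendritic-like barcodes also had less *Sat1* in the second library (0.765-fold, 0.709 to 0.825), and the neutrophil-like interval included a ratio of 1 (0.956-fold, 0.760 to 1.19). *Odc1* and *Sat1*, the making and the acetylation of polyamines, thus stood on opposite sides in 9 of the 10 subsets.

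The genes also differed in how their UMIs were spread over single barcodes. *Arg1* was the most uneven: at 3000 UMIs per barcode its variance was 4.56 and 4.96 times its mean, where counting alone gives 1. No *Arg1* UMI was found in 70.7% and 68.8% of macrophage-like barcodes, while the top 10% of barcodes held 68.2% and 66.4% of all *Arg1* UMIs and single barcodes reached 27 and 22. For *Odc1* the quotient of variance and mean was 2.21 and 2.37, for *Sat1* 1.77 and 1.59, for *Acod1* 1.74 and 2.56 and for *Slc7a2* 1.90 and 3.00. *Arg2* (1.26 and 1.2) and *Ass1* (1.13 and 1.23) were near even. The share of barcodes with an *Ass1* UMI was 4.25% (3.71 to 4.85) and 8.72% (7.59 to 9.96), or 15.4% and 35% before thinning, and that with an *Acod1* UMI 9.74% and 17.7% (24.4% and 42.7%).

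**Figure D4:**
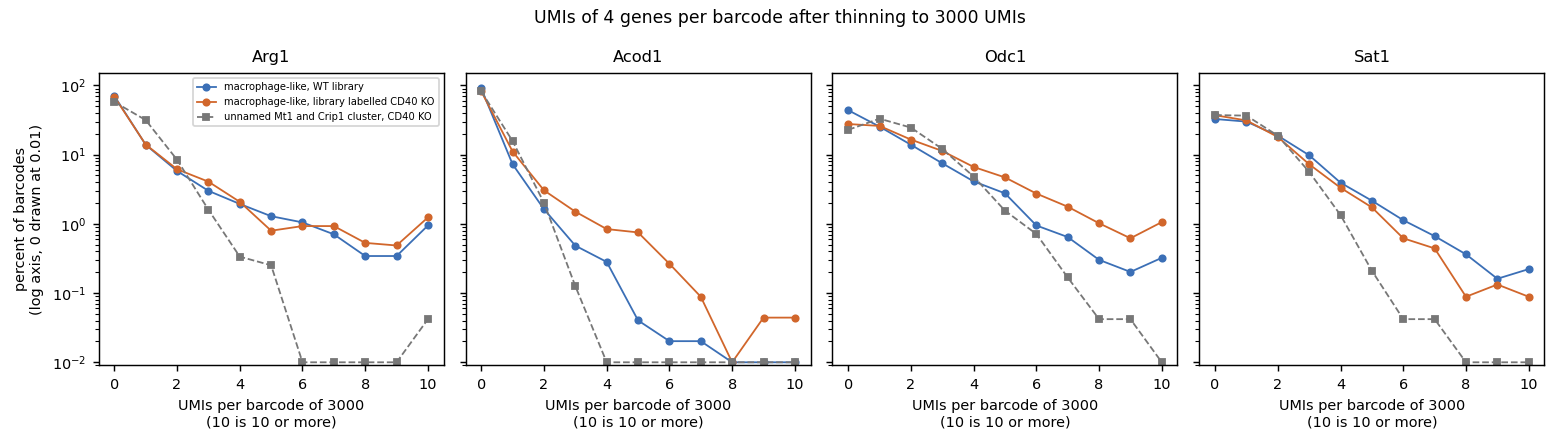
Percent of barcodes (log axis, 0 drawn at 0.01) by number of UMIs of Arg1, Acod1, Odc1 and Sat1 after thinning each barcode to 3000 UMIs, for the macrophage-like class of both libraries and, dashed, the unnamed cluster of the library labelled CD40 KO. Arg1 has a long tail in both macrophage-like lines (4.68% and 4.91% of barcodes with 5 or more UMIs) and little of one in the unnamed cluster (0.294%).

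The unnamed *Mt1* and *Crip1* cluster of the library labelled CD40 KO differed from the class in this respect. *Arg1* was at 187 (181 to 194) CPM there, below the class, while 42.3% of its thinned barcodes had an *Arg1* UMI against 31.2% in the class, so no order is read from the shares. Thinning kept 2382 barcodes of this cluster and left out 1974 shallower ones, so its shares and variances describe the deeper barcodes. The variance was 1.15 times the mean for *Arg1* and between 0.982 and 1.09 times for *Arg2*, *Acod1*, *Slc7a2*, *Odc1*, *Sat1* and *Ass1*. The 7 genes were thus spread almost as counting alone would spread them. This cluster held 18.8% of that library's *Arg2*, 10.5% of its *Acod1* and 26.2% of its *Ass1* UMIs, beside 22.6% of all UMIs of that library, and it is outside all ratios given for the class.

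Barcodes with 3 or more *Arg1* UMIs after thinning were 477 (9.62%) and 250 (11.1%) of the class. The *Slc40a1* and *Ppbp* subset made up 14.7% of them in WT against 3.94% of the WT class and 2.31% of its barcodes without *Arg1*. Lipid-associated-like barcodes were 36.3% of these *Arg1*-rich barcodes in WT and Ly6c monocyte-like ones 32.4% in the second library, beside 31.4% and 33.3% of the class. Mean *Slc7a2* was 0.115 and 0.260 UMIs in them, against 0.0359 and 0.0502 in barcodes without *Arg1*. Read from the transporter, 41.8% and 52.8% of barcodes with a *Slc7a2* UMI also had *Arg1*, against 28.9% and 30.2% of those without, from 170 and 106 barcodes with *Slc7a2*.

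The other pairs given here differed by fewer percentage points, a measure that depends on how common a gene is. *Odc1* was found in 60.4% and 77.6% of *Arg1* barcodes and in 54.3% and 69.9% of the rest, and *Sat1* in 64.7% and 60.3% against 68.3% and 64.1%. For *Sat1* the order turned without thinning (94.8% and 96.4% against 91.7% and 91.2%), so no order is read from it. *Arg2* was found in 20.9% and 26.0% of *Acod1* barcodes and in 14.7% and 19.9% of those without. *Ass1* was found in 8.49% of WT barcodes with *Acod1* and 3.80% of those without, and in 10.2% and 8.39% in the library labelled CD40 KO. These shares pool the subsets, whose levels differ, and are descriptions of barcodes within a library.

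The other genes of the pathways, taken from lists of known members, lay on both sides of 0 for arginine, polyamine and itaconate genes alike. Over all measured genes the median log2 ratio was 0.09. Each list is described by how many of its measured genes passed 1.3-fold, beside the 20% higher and 10.4% lower of all genes (7.12% and 29% with median-of-ratios scaling).

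**Figure D5:**
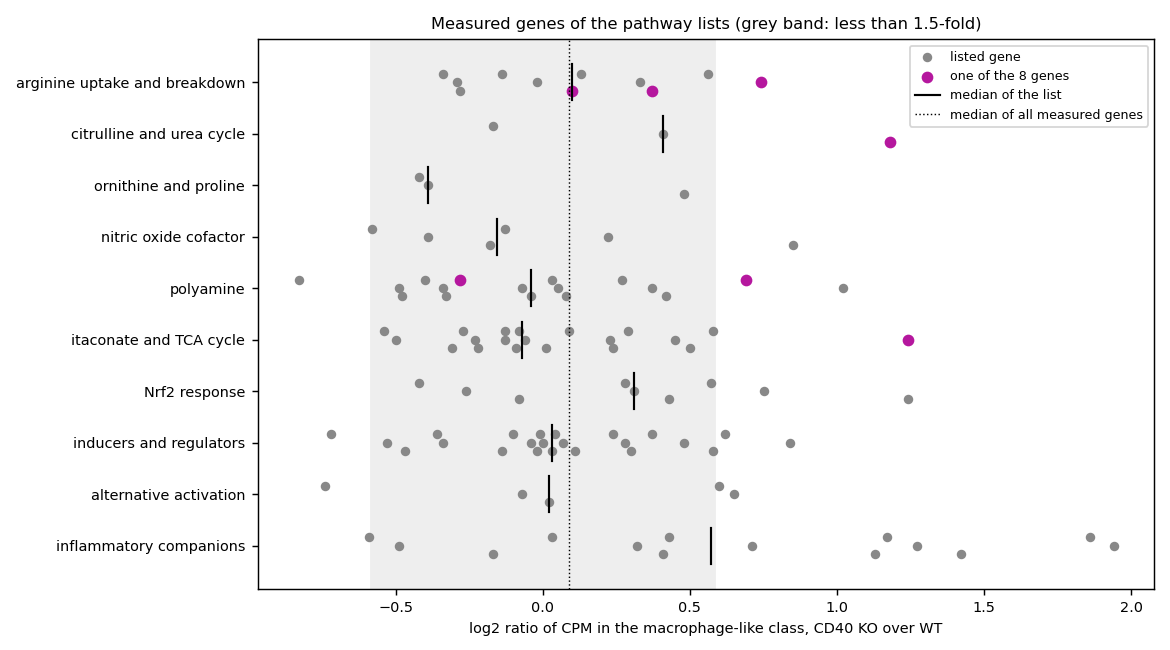
Log2 ratio of CPM in the macrophage-like class, library labelled CD40 KO over WT, for the measured genes of 10 pathway lists (points, the described genes in magenta), with the median of each list (bar), that of all measured genes (dotted line, 0.09) and a grey band for less than 1.5-fold. The list of inflammatory companions has the highest median, 0.57, and the polyamine and TCA cycle lists lie around 0.

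In the list of arginine uptake and breakdown, 2 of 11 measured genes were at least 1.3-fold higher and 0 lower (median 0.10). Beside *Slc7a2* this was *Slc7a1*, the constitutive arginine transporter, at 55.0 and 81.2 CPM (log2 0.56). *Slc3a2*, the heavy chain of several amino acid transporters, was lower in all 10 subsets, at 288 and 228 CPM (−0.34). Of 3 measured citrulline and urea cycle genes 2 were at least 1.3-fold higher and 0 lower. The 3 were *Ass1*, the aspartate carrier *Slc25a13* (0.41) and *Asl*, which completes the return to arginine (28.4 and 25.2 CPM, −0.17). *Asl* and *Ass1*, the 2 steps from citrulline to arginine, thus differed in direction in the class as a whole. Within subsets *Asl* was higher in 4 and lower in 6, while *Ass1* was higher in all 10.

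Ornithine can also become proline. Of 3 measured genes of that list 1 was at least 1.3-fold higher and 2 lower. Among those genes *Aldh18a1* was higher (13.2 and 18.4 CPM, 0.48) and *Oat* was lower (63.6 and 47.4 CPM, −0.42). Nitric oxide synthases need tetrahydrobiopterin, whose entry enzyme *Gch1* stood at 92.5 and 108 CPM (0.22) although *Nos2* itself was nearly absent. *Spr*, which carries out the last step of its synthesis, was lower in all 10 subsets (44.1 and 29.4 CPM, −0.58), and *Qdpr*, which regenerates it, in 9 (46.6 and 35.6 CPM, −0.39). Of 6 measured genes of this cofactor list 1 was at least 1.3-fold higher and 2 lower.

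Of 17 measured polyamine genes 3 were at least 1.3-fold higher and 4 lower (median −0.04). *Smox*, which oxidises spermine, was higher in all 10 subsets, at 59.8 and 121 CPM (1.02). *Paox*, which oxidises acetylated polyamines and so acts after *Sat1*, was lower in all 10, at 37.9 and 21.3 CPM (−0.83). *Oaz1*, the antizyme that binds ornithine decarboxylase and sends it to degradation, was likewise lower in all 10, at 1029 and 734 CPM (−0.49), against the direction of *Odc1*. *Srm*, the synthase of spermidine, was higher in all 10 (24.8 and 33.0 CPM, 0.42).

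Of 20 measured itaconate and TCA cycle genes 4 were at least 1.3-fold higher and 2 lower (median −0.07). *Clybl*, a mitochondrial enzyme of itaconate clearance, was at 8.94 and 13.4 CPM (0.58) and the citrate carrier *Slc25a1* at 17.5 and 24.8 (0.50). *Suclg1* (65.4 and 45.1 CPM, −0.54) and *Idh2* (71.5 and 50.5 CPM, −0.50) were lower in all 10 subsets. Of 9 Nrf2 response genes 4 were higher and 1 lower. These were led by the cystine carrier *Slc7a11* (116 and 273 CPM, 1.24) and *Srxn1* (0.75), while the haem oxygenase *Hmox1* was lower (2213 and 1658 CPM, −0.42).

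Among 23 measured inducers and regulators 4 were higher and 3 lower. *Crem*, a cAMP-responsive factor, was at 25.9 and 46.2 CPM (0.84) and *Hif1a* at 259 and 399 (0.62), both higher in all 10 subsets, and *Myc*, a known activator of *Odc1*, was at 13.6 and 20.3 (0.58). *Irf8* was lower in all 10 (168 and 102 CPM, −0.72). Of 5 genes of alternative activation *Chil3* (0.65) and *Ccl24* (0.60) were higher in the class and *Clec10a* lower (−0.74). Within subsets *Chil3* was higher in 5 and lower in 5, *Ccl24* higher in 3 and lower in 7, and *Clec10a* lower in 9.

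The inflammatory companions of *Nos2* and *Acod1* were the list with most genes past the limit, 9 of 14 higher and 2 lower (median 0.57). *Cxcl3* (131 and 504 CPM, 1.94), *Ptgs2* (87.6 and 318, 1.86), *Vegfa* (80.7 and 217, 1.42) and *Il1b* (421 and 1017, 1.27) were each higher in all 10 subsets. *Tnf* (212 and 151 CPM, −0.49) was lower in all 10 and *Ccl3* in 9 (−0.59). These lists were chosen with earlier results of these data known and are descriptions only.

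Likeness of pattern was measured as Pearson's r of log2(CPM + 10) over 27 sums of at least 100 barcodes, 17 from macrophage-like subsets and 10 from other groups. The sums share 2 libraries and their depth, so the values are descriptions. *Hmox1* was most like *Arg1* (r = 0.94 over 27 sums and 0.91 over the 17), followed by *F13a1*, *B4galt6*, *Cd200r1* and *Msr1*. Over the 17 sums *Gstm1*, *Ptgr1*, *Slc40a1* and *Cyb5a* came after *Hmox1*, with r from 0.90 to 0.86. Closest to *Acod1* were *Trem1* (0.93), *Trem3*, *Ripor2*, *Olr1* and *Mtmr6*, and over the subsets alone *Clec4e* (0.89), *Slc25a12*, *Nedd9*, *Morrbid* and *Gm39469*.

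For *Arg2* the nearest were *Tnfrsf1b* (0.93), *Ikbke*, *Cd24a*, *Cxcl2* and *Nlrp3*. *Nos2* was nearest to *Cdh13*, *Ccdc85a*, *Mmrn2*, *Ptprb* and *Adgrf5* (0.99 to 0.98), and 1 of the 27 sums was endothelial-like. *Slc7a2* had weaker neighbours, *Cxcl1* (0.80), *Vcan*, *Glis3*, *Sec61a1* and *Mapk9*, as did *Ass1*, with *Carmil1* (0.83), *Wnt11*, *Vdr*, *Avpi1* and *Slc39a14*. The limit of 100 barcodes left out the *Saa3* and *Serpinb2* subset (85 and 42 barcodes), where *Slc7a2* was concentrated. It also left out the fibroblast-like barcodes of the second library (80 barcodes). Over the subsets *Ass1* was nearest to *Fxyd5* (0.90), *Slco3a1*, *Cd52*, *AA467197* and *S100a4*. Among the members themselves *Acod1* and *Arg2* were most alike over the 27 sums (r = 0.85), but had r = 0.54 over the 17. The 27 include the neutrophil-like sum of WT and both sums of the mixed cluster, which had the highest levels of both genes among them. The 64 neutrophil-like barcodes of the second library were too few to be included. Over the 17, *Acod1* and *Ass1* were most alike (r = 0.73). For *Arg1* and *Acod1* r was 0.06 over the 27 and 0.01 over the 17.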

How the data were processed

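Each deposited matrix holds UMI counts as whole numbers, one for every gene in every barcode. Per the file headers the authors ran Cell Ranger 7.0.1, on Chromium 3′ v3 libraries, per the labels' protocols. The submitters' processing notes name Cell Ranger, STAR and mm10, with no versions. The sources used here do not say whether intron reads were counted or how reads shared with processed copies of *Odc1* were treated. Barcodes were kept if they had 1000 or more UMIs, 500 or more genes and no more than 10% of mitochondrial UMIs. Scrublet scores marked 903 and 531 barcodes as doublets, a rate of 0.8% per 1000. Clustering in scanpy 1.11.5 used 2000 variable genes, 30 components, 15 neighbours and Leiden resolution 0.6. It left out the 8 genes, the pathway lists, *Cd40* and sex-linked, mitochondrial, ribosomal and haemoglobin genes. Clusters were named by marker lists, and the macrophage-like class was clustered once more with the same settings.

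UMIs were summed per group and library and scaled to CPM, with exact Poisson intervals. Ratios have exact conditional (Clopper-Pearson) intervals, and shares exact binomial (Clopper-Pearson) ones. A gene counted as measured if the mean of the 2 libraries reached 10 CPM. The genes named are the 8 members, up to 4 genes per pathway list with the largest ratio, and the 5 most alike to a member. *Srm*, *Idh2*, *Tnf* and *Ccl3* fall outside this rule and were chosen after their values were seen, as were the genes that name a cluster. A pair of genes that the rule names is not reported here. The members and lists were chosen with earlier results of these data known. The counting was tested on simulated data. Other settings changed scaling, weights, filters, doublets, depth, resolution, the class and the limits.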

Additional observations from a re-analysis of the deposited data

Results flagged for a closer look

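In some subsets of the macrophage-like class the libraries differed in opposite directions for the same gene. The difference between subsets was not tested, since each library is 1 sample. The intervals cover counting error only, and *Arg1* and *Slc7a2* were spread over barcodes of the class more unevenly than counting alone gives. *Arg1* had a log2 ratio (library labelled CD40 KO over WT) of −1.04 (−1.29 to −0.79) in interferon-response-like and −1.16 (−1.47 to −0.86) in MHC class II-like barcodes, and of 0.49 (0.38 to 0.60) in Ly6c monocyte-like ones. *Slc7a2* had −1.71 in MHC class II-like barcodes (−3.35 to −0.45, from 134 and 5 UMIs), 1.11 in *Scin* and *Saxo1* barcodes (0.54 to 1.72) and 1.95 in *Slc40a1* and *Ppbp* barcodes (1.45 to 2.47).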

How the results depend on the processing

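No paired analysis was possible because each group has 1 library. Over 14 alternatives the log2 ratio in the macrophage-like class kept its sign for *Ass1* (0.64 to 1.26), *Odc1* (0.42 to 0.73), *Slc7a2* (0.42 to 0.83), *Arg2* (0.08 to 0.56) and *Sat1* (−0.55 to −0.24). *Ass1* stayed at least 1.5-fold higher in all 14, *Odc1* in 13, *Acod1* in 11 and *Slc7a2* in 10. *Acod1* ranged from −0.10 to 1.31: it reversed to −0.10 with barcodes assigned by their own marker UMIs, a gate that holds 6308 and 7013 barcodes. Barcodes of the mixed and the unnamed clusters, which the class leaves out, are among those in that gate. *Arg1* ranged from −0.17 to 0.24 and was below 0 with median-of-ratios scaling and with that gate. The count of 4 genes at least 1.5-fold higher was 2 with median-of-ratios scaling (*Acod1*, *Ass1*), 2 at a limit of 2-fold (*Acod1*, *Ass1*), 2 with the marker gate (*Odc1*, *Ass1*) and 2 with the 10 subsets at equal shares (*Odc1*, *Ass1*), an alternative added after seeing the data. It was 3 with the clusters of the class at equal shares and with the mixed cluster added, and 4 otherwise. The count of genes at least 1.5-fold lower was 0 throughout. Shares of barcodes with a UMI depend on depth and are given at 3000 UMIs. At that depth *Nos2* is seen in too few barcodes for an order among subsets.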
